A study of Gallus gallus and Dromaius novaehollandiae and Alligator mississippiensis with 60 samples.

Results

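Dermis and epidermis of the developing chicken skin were compared in feather tracts and in foot scales, and the contrast between the layers in feather was set against the same contrast in foot scale. The comparison took 24 of the 60 libraries of the series, chosen by their labels alone. They were 4 of feather dermis, 8 of feather epidermis, 4 of foot scale dermis and 8 of foot scale epidermis, all from untreated chicken embryos incubated at 37.8 °C. Feather libraries came from the dorsal and the femoral tract at the placode stage (Hamburger and Hamilton stages 33 to 34) and at morphogenesis (stage 36). Foot scale libraries came from scutate scales, the broad overlapping scales of the front of the foot, at placode (stage 37) and morphogenesis (stage 40), and from reticulate scales, small dome-like scales on the underside of the foot, at placode (stage 39) and morphogenesis (stage 40). Each of these 8 classes of tract and stage held 1 dermis and 2 epidermis libraries, so the dermis has no replicate within a class and the 4 classes of an appendage serve as its repeats. Feather came from younger embryos than foot scale at both named stages, so age and appendage cannot be told apart in most of what follows.

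A feather or a scale forms by exchange of signals between the epidermis, a sheet of keratinocytes, and the dermis, a mesenchyme of fibroblasts that also holds vessels, nerves and muscle. A placode is the first thickening of the epidermis, and beneath it dermal cells gather. In classic grafting experiments in the chick, the origin of the dermis largely set whether the epidermis above it made a feather or a scale, which is why the contrast between layers is of interest in each appendage. At morphogenesis the feather bud grows out of the skin, while scales stay flat or dome shaped and stratify early.

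The deposited values are TPM, a level per gene length relative to the whole library, listed under chicken gene identifiers. None of the identifiers could be paired with a gene name (0 matches to the reference used here), so genes appear by identifier, their functions are not given, and marker genes of keratinocytes, fibroblasts and other cell types could not be looked up. Between 10860 and 12117 genes reached 1 TPM in a library, and the 10 most abundant genes took 7.81% to 15.8% of its total. Replicate epidermis libraries of a class correlated at 0.978 to 0.989 across genes. Read depth behind the TPM values is unknown. In bulk tissue, fewer cells of a type and less RNA per cell cannot be told apart. The titles carry specimen numbers, and the 4 feather dermis libraries carry 2 numbers between them (dorsal and femoral of the same specimen), against 4 numbers in the 4 foot scale dermis libraries.

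The layers were checked with genes chosen in claw libraries. Claw is itself an appendage of the foot, so comparisons of feather with foot scale over these genes may partly follow from that choice. This was not tested. In the 6 chicken claw libraries, 1431 of the genes tested here were at least 4-fold higher in dermis and 480 at least 4-fold higher in epidermis. Claw placode epidermis replicate 1 carries the same specimen number as replicate 2 of feather morphogenesis epidermis in both tracts. Over the claw dermis genes the median level, as log2(TPM + 1), was 4.21 to 4.76 in feather dermis and 2.15 to 2.45 in feather epidermis, and 4.56 to 4.75 in foot scale dermis and 1.12 to 1.82 in foot scale epidermis. Over the claw epidermis genes it was 1.38 to 1.66 in feather dermis and 3.70 to 4.30 in feather epidermis, and 0.85 to 1.47 in foot scale dermis and 4.07 to 5.37 in foot scale epidermis. In all 24 libraries the genes of the labelled layer stood higher. By this median the dermal genes stood higher in each of the 8 feather epidermis libraries than in any of the 8 foot scale epidermis libraries. By summed level the groups overlapped, at 23092 to 36556 TPM in feather epidermis and 13880 to 38681 TPM in foot scale epidermis. By the median, the epidermal genes stood highest among dermis libraries in the feather dorsal placode library. By summed level they stood highest in the feather femoral morphogenesis library, at 6569 TPM, against 6187 TPM in the feather dorsal placode library. The part of dermal transcripts in epidermis libraries in the results below was not tested.

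**Figure D1:**
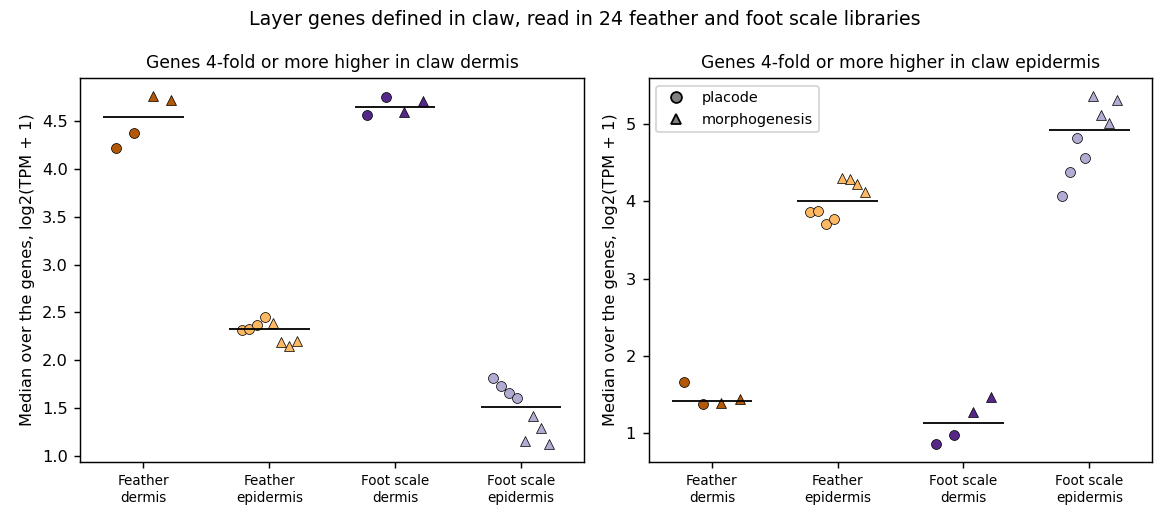
Median level of the 1431 genes higher in claw dermis (left) and the 480 genes higher in claw epidermis (right) in each of 24 libraries, in log2(TPM + 1). Circles are placode and triangles morphogenesis libraries, and the black line is the median of the group. On the left, feather epidermis at 2.15 to 2.45 lies above foot scale epidermis at 1.12 to 1.82.

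The layers differed widely in both appendages, and genes called in both mostly shared their direction. Of 13436 genes tested, 3907 were higher (29.1%) and 3686 lower (27.4%) in dermis than in epidermis in feather, 56.5% in all, and 4340 were higher (32.3%) and 4009 lower (29.8%) in foot scale, 62.1% in all. The feather count depended on how libraries of 1 specimen number were counted. It was 5306 with dorsal and femoral libraries averaged, 5610 with only the epidermis of specimens that also gave dermis, and 6436 without the dorsal morphogenesis dermis library, while the foot scale count was 8232 with averaging and 6591 with matched epidermis. In the fit of all 24 libraries the direction was shared by 5737 genes called in both appendages, 3138 of them higher in dermis and 2599 higher in epidermis. The remaining 171 genes called in both had opposite directions. Layer contrasts were wider in foot scale than in feather: their SD over genes was 1.31 log2 units in feather and 1.56 in foot scale, and 59.6% of all genes had the larger contrast in foot scale. Over the claw dermis genes, dermis exceeded epidermis of the same specimen and tract by a median of 1.47 to 2.20 log2 units in the 4 feather pairs, against 2.07 to 2.78 in the 4 foot scale pairs. The feather and foot scale pairs overlapped here, since the feather femoral pair at morphogenesis (2.20) lay above the scutate placode pair (2.07). Within each appendage the difference was larger at the later stage. Feather pairs stood at 1.47 and 1.51 at placode and at 1.98 and 2.20 at morphogenesis. Scutate and reticulate pairs stood at 2.07 and 2.44 at placode and at 2.57 and 2.78 at morphogenesis. Over the claw epidermis genes, both feather morphogenesis pairs (-2.28 and -2.10) exceeded the scutate placode pair (-2.04) in size. Age and appendage cannot be told apart here.

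The layer contrast depended on the appendage in 2747 genes, 20.4% of those tested. The layer-by-appendage term is the dermis minus epidermis difference of feather minus that of foot scale, on the log2(TPM + 1) scale, and a gene is called at a Benjamini-Hochberg adjusted p under 0.05 in limma. The term was higher in 1150 genes (8.56%), meaning relatively more dermal in feather, and lower in 1597 genes (11.9%), meaning relatively more dermal in foot scale. It reached 2-fold in 538 of the first and 950 of the second. When each dermis library was set against the epidermis library of its own specimen and tract, the 4 feather differences lay wholly apart from the 4 foot scale differences in 52.9% of the genes with a higher and 51.4% of those with a lower term, against 13.4% of all genes. The same libraries chose the genes, so these shares describe them and test nothing. With dorsal and femoral libraries of a specimen averaged, so that feather dermis counts as 2 samples, 1190 genes were called, 450 higher and 740 lower. Without the scutate placode dermis library 1735 genes had a higher term. The split by direction held at 43.8% higher after median-of-ratios rescaling, against 41.9% as deposited, but came to 52.7% higher after quantile normalization, so which direction holds more genes depends on the scaling.

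**Figure D2:**
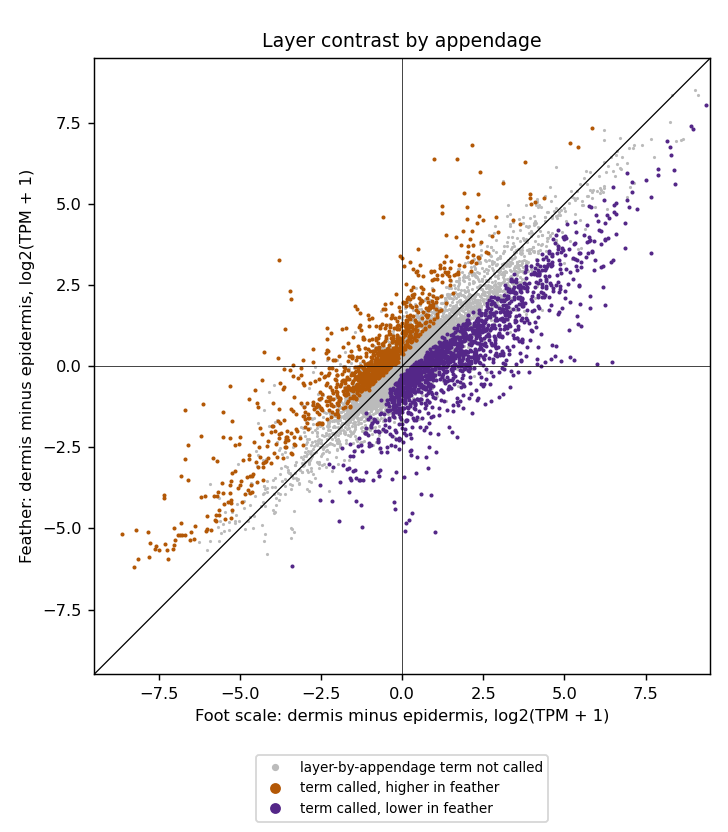
Dermis minus epidermis in feather (vertical axis) and in foot scale (horizontal axis) for 13436 genes, in log2(TPM + 1), with the line of equal contrast. Orange and purple points are the 1150 and 1597 genes with a called term, and most of the gene cloud lies along the diagonal, where the appendages share the contrast.

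In most of these genes the layer contrast was smaller in size in feather than in foot scale. In 171 of them the layers were called in opposite directions. Where the feather contrast was not called, its estimate could lie on either side of 0. Among the 1597 genes with a lower term, 653 were called higher in dermis in both appendages and exceeded epidermis by less in feather, and 465 were called higher in dermis in foot scale alone. A further 289 were called higher in epidermis in feather alone, 89 were higher in epidermis in both and more so in feather, 91 were higher in epidermis in feather and in dermis in foot scale, and 10 passed in neither. Among the 1150 genes with a higher term, 363 were higher in epidermis in both appendages and less so in feather, and 370 were called higher in epidermis in foot scale alone. In the others, 180 were called higher in dermis in feather alone, 141 were higher in dermis in both and more so in feather, 80 were higher in dermis in feather and in epidermis in foot scale, and 16 passed in neither. "Alone" here means that the other appendage was not called, and the term tests the difference itself. In 1957 of the 2747 genes the contrast was the larger one in foot scale, as it was in 59.6% of all genes. Among the genes chosen in claw, of the 1431 dermal ones the term was lower in 517 and higher in 61. Of the 480 epidermal ones it was higher in 194 and lower in 14, against 11.9% lower and 8.56% higher over all genes. Choosing layer genes in a foot appendage may favour the contrast of foot scale, so these splits describe the genes and test nothing. Outside both groups, 895 genes had a higher and 1066 a lower term, which is 17.02% of 11525. Claw placode epidermis replicate 2 held 39.3 TPM of ENSGALG00000023129, a gene of foot scale and claw dermis, against 0.112 TPM in its replicate. Claw morphogenesis epidermis replicate 1 held 5.67 TPM of it, against 0.913 TPM in its replicate. Choosing the layer genes without the placode library, and with the morphogenesis library kept, gave 1555 dermal genes with 551 lower and 67 higher. It gave 458 epidermal genes with 190 higher and 12 lower. Feather minus foot scale had a median of -0.14 in dermis and 0.40 in epidermis over the 1431 dermal genes, and of 0.11 in dermis and -0.61 in epidermis over the 480 epidermal genes. The estimated feather contrast was at or below 0 in 682 of the 1597 genes with a lower term and in 555 of the 1150 with a higher term. These include the genes listed above as higher in epidermis in feather. Over all genes the median feather contrast was -0.02, so an estimate at or below 0 does not set these genes apart.

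The appendages differed more often in their epidermis than in their dermis. From the same fit, feather minus foot scale was called in 6167 genes in epidermis (45.9%) and in 2002 genes in dermis (14.9%), with 16 epidermis and 8 dermis libraries behind them. With dorsal and femoral libraries averaged the counts were 4450 in epidermis and 570 in dermis, and with matched epidermis only they were 1512 and 564. The dermis count was 1175 without the feather dorsal placode, 1214 without the reticulate placode and 1225 without the scutate morphogenesis dermis library. Of the 2747 genes with a called term, 1694 differed between appendages in epidermis and were not called in dermis, 611 differed in dermis and were not called in epidermis, 301 differed in both, and 141 in neither. Of the 301, 243 differed in opposite directions in the 2 layers. The term equals the difference in dermis minus that in epidermis, so choosing genes by it favours opposite directions and this count tests nothing. By size of the estimate, the epidermis held the larger of the 2 differences in 61.5% of the called genes and in 55.2% of all genes, where the dermis estimates rest on fewer libraries and have the larger errors. Feather was called higher in 4298 genes (32%) and lower in 1869 genes (13.9%) in epidermis, and higher in 1286 (9.57%) and lower in 716 (5.33%) in dermis. These splits depended on the scaling. The share called higher in feather was 69.7% in epidermis and 64.2% in dermis in the deposited TPM, 50.9% and 37.3% with median-of-ratios rescaling, and 51.7% and 53.4% after quantile normalization. On the deposited scale the median log2 difference over all genes was 0.12 in epidermis and 0.10 in dermis, and median-of-ratios rescaling brought these to 0.02 and -0.02.

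**Figure D3:**
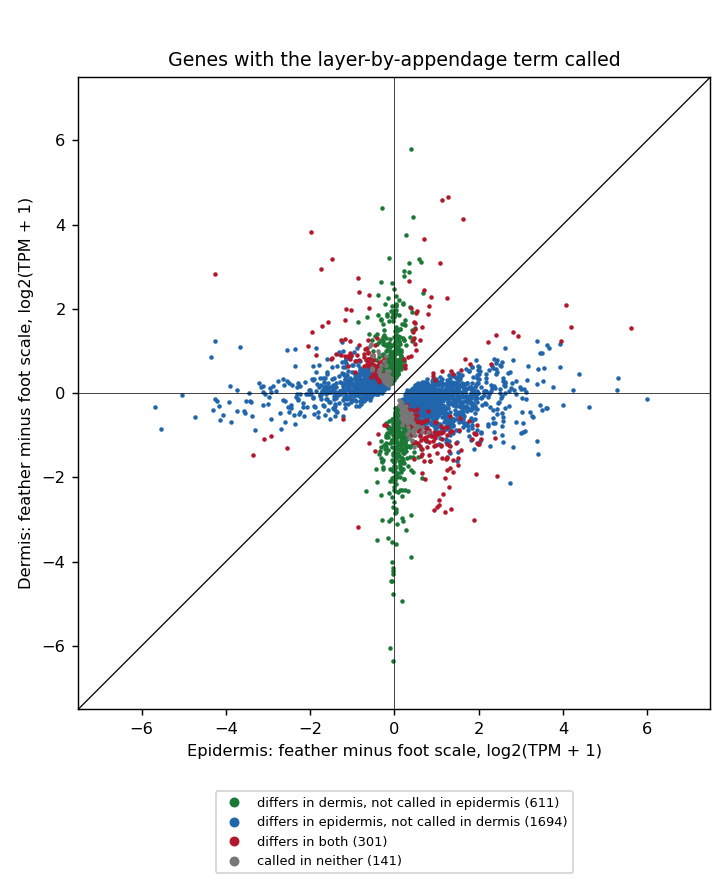
Feather minus foot scale in dermis (vertical axis) and in epidermis (horizontal axis) for the 2747 genes with a called layer-by-appendage term, in log2(TPM + 1). Blue points (1694 genes) spread along the epidermis axis, green points (611 genes) along the dermis axis, and red points (301 genes) differ in both layers.

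The 2 genes with the highest term changed layer between the appendages. ENSGALG00000009415 stood at 94.6 and 35.4 TPM in feather dermis of the dorsal and femoral tract at placode and at 19.9 and 7.78 TPM at morphogenesis, against 0.616, 1.61 and 5.04 TPM (lowest, median and highest of 8) in feather epidermis. In foot scale dermis it stood at 10.6 and 1.51 TPM in scutate and reticulate placodes and at 2.22 and 1.68 TPM at morphogenesis, against 11.7, 68.8 and 182 TPM in foot scale epidermis. Every feather dermis library lay above every feather epidermis library, every foot scale dermis library lay below every foot scale epidermis library, and within foot scale epidermis the scutate libraries (11.7 to 27.5 TPM) lay below the reticulate ones (110.1 to 182 TPM). Its layer contrast was 3.27 (SE 0.71) in feather and -3.80 (SE 0.71) in foot scale, and the term 7.08 (SE 1.001, adjusted p = 0.000134). With feather at stage 36 set against scutate scale at stage 37, the pair nearest in age, the term was 2.20. That pair leaves 1 foot scale dermis library, so only the size of the term is given.

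ENSGALG00000009302 stood at 165 and 216 TPM in feather dermis at placode and at 205 and 211 TPM at morphogenesis, against 16.9, 43.7 and 95.2 TPM in feather epidermis. In foot scale the layers were reversed and the scales differed: dermis held 121 and 108 TPM in scutate scale and 0.450 and 1.04 TPM in reticulate scale (placode and morphogenesis), against 95.7, 154 and 269.5 TPM in foot scale epidermis. The layer contrast was 2.33 (SE 0.70) in feather and -3.46 (SE 0.70) in foot scale, giving a term of 5.80 (SE 0.996, adjusted p = 0.000692), and the layer contrast of scutate minus reticulate scale was 5.41 (adjusted p = 3.24e-05). All 4 feather dermis libraries lay above the 2 scutate ones, and both reticulate ones were near 1 TPM or under it.

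The 2 genes with the lowest term differed in opposite layers. ENSGALG00000023129 was a transcript of foot scale dermis. It was listed at 0, 0.234, 0.153 and 0.128 TPM in feather dermis (dorsal and femoral placode, dorsal and femoral morphogenesis) and at no more than 0.107 TPM in feather epidermis, and at 88.7, 105, 79.0 and 93.3 TPM in foot scale dermis (scutate and reticulate placode, scutate and reticulate morphogenesis), against no more than 0.148 TPM in foot scale epidermis. The groups did not overlap and the 4 foot scale dermis libraries lay within 79.0 to 105 TPM. Its layer contrast was 0.13 (SE 0.10) in feather and 6.46 (SE 0.10) in foot scale, and the term -6.32 (SE 0.15, adjusted p = 9.52e-15).

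ENSGALG00000014634 was the most abundant of the named genes and belonged to feather epidermis. It held 93.8, 13.8, 10.3 and 19.6 TPM in feather dermis in the same order of classes, against 373, 858 and 2108 TPM in feather epidermis, and 3.98, 66.8, 53.1 and 24.6 TPM in foot scale dermis, against 0.281, 31.0 and 124 TPM in foot scale epidermis. The layer contrast was -5.12 (SE 1.02) in feather and 1.01 (SE 1.02) in foot scale, the second not called (adjusted p = 0.409), and the term -6.13 (SE 1.45, adjusted p = 0.00645). Its foot scale epidermis libraries fell apart within classes: 0.483 and 114.02 TPM in the 2 scutate replicates at morphogenesis, and 119 and 0.281 TPM in the 2 reticulate ones. Between layers of the same specimen number the foot scale differences were 0.77, 0.15, -1.09 and -2.22 in scutate and reticulate placode and scutate and reticulate morphogenesis, so the sign of the foot scale contrast depended on the epidermis libraries used. With matched epidermis only the term was -4.34 (adjusted p = 0.00823). With dorsal and femoral libraries averaged it kept its size, at -6.13, and was not called (adjusted p = 0.0717), nor was it called from morphogenesis libraries alone (-6.935, adjusted p = 0.119).

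**Figure D4:**
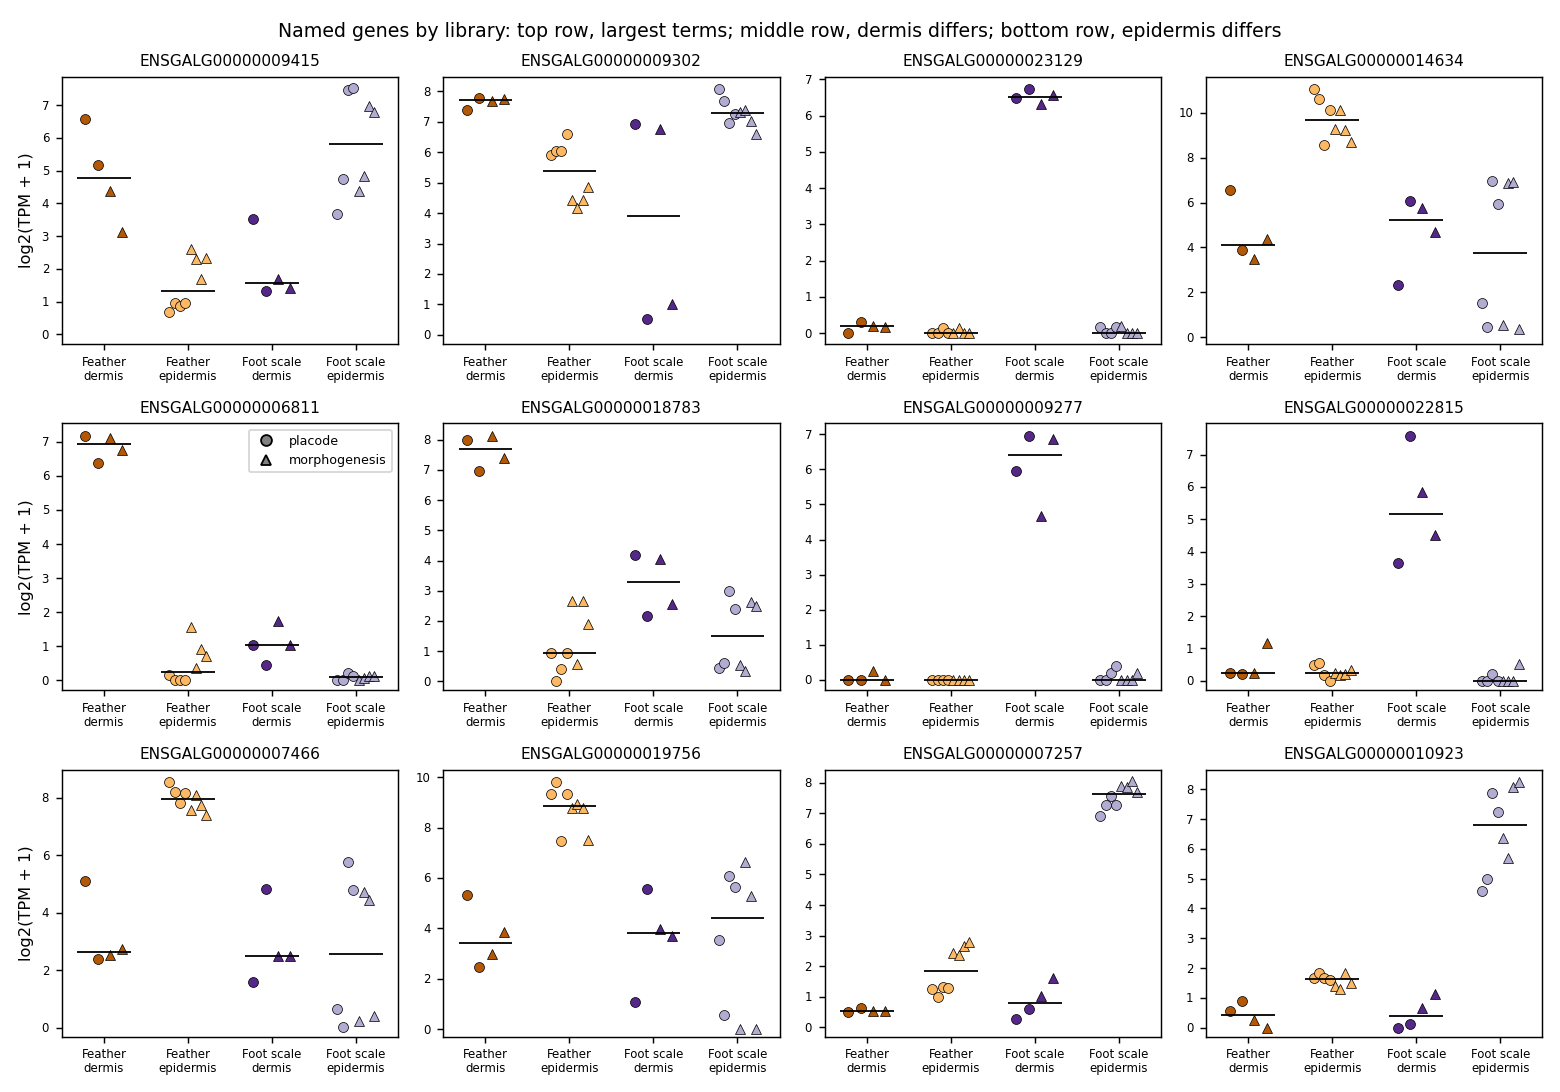
Levels of the 12 named genes in each of 24 libraries, in log2(TPM + 1), by appendage and layer. Circles are placode and triangles morphogenesis libraries, and the black line is the median of the group. The foot scale dermis libraries of ENSGALG00000023129 stand at 79.0 to 105 TPM while all other groups lie near 0, and foot scale epidermis of ENSGALG00000014634 splits into a high and a low set of libraries.

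Among genes that differed in dermis and were not called in epidermis, 270 had a higher term (dermis higher in feather) and 341 a lower one (dermis lower in feather). The median layer contrast of the 270 genes was 0.65 in feather and -0.26 in foot scale, and that of the 341 genes was 0.55 in feather and 1.94 in foot scale. ENSGALG00000006811 marked feather dermis, with 145 and 82.4 TPM at placode and 138 and 107 TPM at morphogenesis (dorsal and femoral), against 0, 0.188 and 1.98 TPM in feather epidermis. In foot scale it reached 2.36 TPM at most in dermis, against 0.147 TPM in epidermis. The difference between feather and foot scale dermis was 5.79 (SE 0.26) and the term 5.41 (SE 0.32, adjusted p = 8.73e-09). ENSGALG00000018783 was also highest in feather dermis, at 257 and 124 TPM at placode and 281 and 167 TPM at morphogenesis, against 0, 0.916 and 5.34 TPM in feather epidermis. It remained measurable in scutate dermis (17.2 and 15.6 TPM), against 0.261 to 0.511 TPM in scutate epidermis. In reticulate scale it held 3.48 and 4.85 TPM in dermis and 4.22 to 6.89 TPM in epidermis, with paired log2 differences of -0.22 and -0.09. Its term was 4.68 (SE 0.84, adjusted p = 0.000915), and its layer contrast differed between scutate and reticulate scale by 3.92 (adjusted p = 0.00782). In the pair nearest in age, with 1 foot scale dermis library, the term was 2.16.

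On the side of foot scale dermis, ENSGALG00000009277 was listed at 0 in 3 of 4 feather dermis libraries, at 0.191 TPM in the other and at 0 in all 8 feather epidermis libraries. It held 60.5 and 124 TPM in scutate and reticulate dermis at placode and 24.6 and 115 TPM at morphogenesis, against 0.313 TPM at most in foot scale epidermis. The term was -5.95 (SE 0.31, adjusted p = 2.67e-09), and its foot scale contrast was smaller in scutate than in reticulate scale by a log2 difference of -1.41 (adjusted p = 0.0169). ENSGALG00000022815 varied more among foot scales, with 11.5 and 192 TPM at placode and 56.2 and 21.7 TPM at morphogenesis (scutate and reticulate dermis), against 0.419 TPM at most in foot scale epidermis. In feather it stood at 0.145 to 1.27 TPM in dermis and 0 to 0.456 TPM in epidermis. Its term was -5.11 (SE 0.55, adjusted p = 1.08e-05), and all 4 foot scale dermis libraries lay above all feather libraries. For the dermis libraries this separation is required by the rule that named the gene.

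A near on and off pattern was found in foot scale dermis. In all, 6 genes stood at 5 TPM or more in all 4 foot scale dermis libraries and under 1 TPM in the other 20 libraries, and 0 genes did so in feather dermis. The 0 depends on the limit of 1 TPM. ENSGALG00000006811 held 82.4 to 145 TPM in feather dermis and at most 2.36 TPM in the other 20 libraries. The foot scale dermis levels of the 6 genes ran from 5.07 to 153 TPM. All 6 had a called term, which choosing them on the same libraries largely fixes. In both claw dermis libraries 5 of the 6 stood at 5 TPM or more, as did 9766 of the 13436 genes tested. Only 1 of the 6 stood under 1 TPM in all 4 claw epidermis libraries. No gene stood at 5 TPM or more in every epidermis library of an appendage and under 1 TPM in every one of the other (0 in each direction).

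Among genes that differed in epidermis and were not called in dermis, 1019 were higher in feather epidermis (a lower term) and 675 lower in feather epidermis (a higher term). The 1019 genes had a median layer contrast of -0.03 in feather and 0.96 in foot scale, and the 675 genes one of -0.13 in feather and -1.04 in foot scale. These medians keep the sign, so genes higher in dermis and genes higher in epidermis offset each other. A median near 0 in feather therefore does not mean that single genes had little contrast there. ENSGALG00000007466 stood at 33.7 and 4.32 TPM in feather dermis at placode and 4.77 and 5.76 TPM at morphogenesis, against 167, 250.2 and 375 TPM in feather epidermis. Foot scale dermis held 2.02 and 27.2 TPM in scutate and reticulate placodes and 4.67 TPM in both at morphogenesis, against 0.028, 10.7 and 53.6 TPM in foot scale epidermis. Its term was -4.97 (SE 0.99, adjusted p = 0.00208). ENSGALG00000019756 ran from 4.59 to 38.7 TPM in feather dermis, against 175, 465 and 896 TPM in feather epidermis, and from 1.10 to 46.1 TPM in foot scale dermis, against 0, 24.4 and 97.03 TPM in foot scale epidermis. Its term was -5.19 (SE 1.43, adjusted p = 0.0163), and with tracts averaged the same -5.19 was not called (adjusted p = 0.117).

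ENSGALG00000007466, ENSGALG00000019756 and ENSGALG00000014634 shared a pattern across foot scale libraries. In foot scale epidermis all 3 were high in both reticulate placode libraries, in scutate morphogenesis replicate 2 and in reticulate morphogenesis replicate 1. There ENSGALG00000014634 held 60.0 to 124 TPM, ENSGALG00000007466 held 20.8 to 53.6 TPM and ENSGALG00000019756 held 38.1 to 97.03 TPM. In the other 4 libraries the same genes held 0.281 to 1.92, 0.028 to 0.587 and 0 to 10.7 TPM. The 3 foot scale dermis libraries with the specimen numbers of high epidermis libraries held 24.6 to 66.8 TPM of ENSGALG00000014634, and the scutate placode dermis library, whose number goes with a low epidermis library, held 3.98 TPM. High and low libraries thus stood side by side in both classes at morphogenesis, and the dermis library of a specimen number went with its epidermis for this gene. With matched epidermis only, which leaves out 3 of the 4 low and 1 of the 4 high epidermis libraries, the terms were smaller and still called: -4.34 for ENSGALG00000014634, -3.93 for ENSGALG00000007466 (adjusted p = 0.0248) and -3.23 for ENSGALG00000019756 (adjusted p = 0.0213).

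On the side of foot scale epidermis, ENSGALG00000007257 stood at 119, 198 and 262 TPM in foot scale epidermis and at 0.217 to 2.09 TPM in foot scale dermis, while feather held 0.421 to 0.542 TPM in dermis and 1.002, 2.82 and 5.997 TPM in epidermis. Its layer contrast was -1.34 (SE 0.21) in feather and -6.69 (SE 0.21) in foot scale, and the term 5.35 (SE 0.29, adjusted p = 3.17e-09). The term was lower at morphogenesis than at placode by a log2 difference of -1.64 (adjusted p = 0.0136), and feather epidermis held 4.15 to 5.997 TPM at morphogenesis and 1.002 to 1.49 TPM at placode. ENSGALG00000010923 stood at 0 to 0.866 TPM in feather dermis, against 1.43, 2.11 and 2.601 TPM in feather epidermis, and at 0 to 1.21 TPM in foot scale dermis, against 22.9, 116.1 and 303 TPM in foot scale epidermis. Its term was 4.98 (SE 0.44, adjusted p = 1.73e-06), and its layer contrast was less negative in scutate than in reticulate scale by 2.17 (adjusted p = 0.00318). All 8 foot scale epidermis libraries of both genes lay above all 8 feather epidermis libraries, as the rule that named these genes requires.

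Differences in layer contrast within an appendage were tested with 2 dermis libraries on each side, so their counts cannot be set against that of the term. Scutate and reticulate scale differed in their layer contrast in 309 genes (2.3%), 109 higher (0.811%) and 200 lower (1.49%) in scutate scale, and dorsal and femoral feather in 13 genes by limma (0.0968%, with 363 at an unadjusted p under 0.05). The term itself changed between placode and morphogenesis in 704 genes (5.24%), with 301 higher (2.24%) and 403 lower (3%) at morphogenesis. Of the 2747 genes with a called term, 155 changed with stage (71 of the 1150 with a higher and 84 of the 1597 with a lower term), and 100 differed between scutate and reticulate scale. Of the 341 genes lower in feather dermis, 33 (9.68%) differed between the scales. The term was called in 3150 genes from morphogenesis libraries alone and in 1319 from placode libraries alone. The sign of the term was the same at both stages in 1148 of the 1150 genes and 1594 of the 1597, a count that the choice of genes on both stages largely fixes. Scutate scale alone gave 1226 genes and reticulate scale alone 3058. The pair nearest in age leaves 1 foot scale dermis library, so its count is not given.

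The epidermal side of the pattern was read in another bird. Emu epidermis was measured in 8 feather and 7 foot scale libraries, none of which entered the choice of genes. Some of the emu feather libraries share a specimen number. A feather and a scutate library with different stage labels also share a number. The emu fit counts all of these as separate. The emu embryos were incubated at a lower temperature than the chicken ones. Their stage labels are those of chicken, so feather is again younger than foot scale. Age and appendage thus cannot be told apart in emu either, and a shared direction may follow from either. Feather minus foot scale was called in emu in 34.6% of genes as higher and 18.9% as lower. Of the 521 genes higher in chicken feather epidermis (lower term) that could be tested in emu, 262 were higher (50.3%) and 76 lower in emu feather epidermis. Of the 404 genes lower in chicken feather epidermis, 205 were lower (50.7%) and 49 higher. In genes that differed in chicken dermis the counts were closer together. Of 127 genes lower in feather dermis, 31 were higher (24.4%) and 31 lower (24.4%) in emu feather epidermis. Of 121 genes higher in feather dermis, 37 were higher (30.6%) and 25 lower (20.7%). Over the 6880 genes tested in both birds the shares were 35.1% higher and 18.4% lower. Equal counts in the 127 genes thus hold fewer higher and more lower calls than all genes do. ENSGALG00000010923 stood at 0, 0.899 and 2.81 TPM (lowest, median and highest) in emu feather epidermis, against 39.4, 83.6 and 246 TPM in emu foot scale epidermis, and the log2 difference was -5.74 (SE 0.16, adjusted p = 3.56e-09). ENSGALG00000007466 stood at 85.8, 119 and 274 TPM in emu feather and 12.9, 21.3 and 35.8 TPM in emu foot scale epidermis, where the log2 difference came to 2.64 (SE 0.18, limma adjusted p = 1.76e-06). ENSGALG00000009415 was lower in emu feather epidermis, at 4.15, 9.24 and 19.5 TPM, against 19.02, 42.8 and 291 TPM in emu foot scale epidermis (adjusted p = 4.98e-07). ENSGALG00000007257 stood at no more than 1.01 TPM in emu feather epidermis, against 1.30 to 1.64 TPM in emu foot scale epidermis, far below its level in chicken foot scale. No emu dermis was measured in the libraries used here, so the dermal side of the term has no counterpart in a second species.

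**Figure D5:**
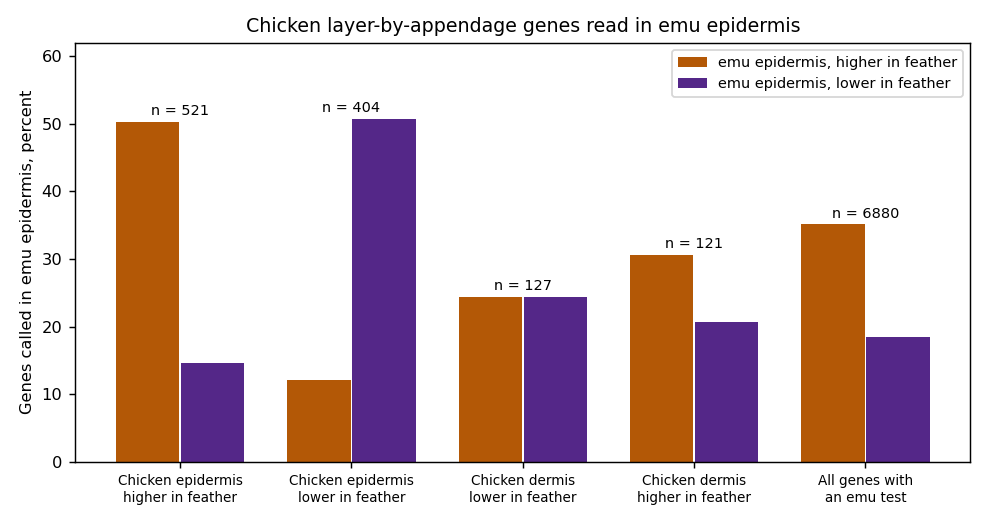
Share of genes called higher (orange) and lower (purple) in feather than in foot scale epidermis of emu, in percent, for chicken genes with a called term grouped by the layer in which the appendages differ. The first 2 groups lean towards their chicken direction, at 50.3% and 50.7%, against 35.1% higher and 18.4% lower in all 6880 genes tested in both birds.

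The claw, another appendage of the foot, was measured in 6 libraries of its own. Its placode libraries were of stage 36, the stage of the feather morphogenesis libraries. At the same named stage claw differed in age from feather and foot scale. The fit pooled both named stages, so age differs along with appendage here too. In genes with a lower term the median layer contrast was 0.17 in feather, 1.36 in foot scale and 1.21 in claw, and in genes with a higher term 0.04, -0.74 and -0.14, against -0.02, -0.01 and 0.41 over all genes. The genes were chosen on the feather and foot scale libraries, so their distance from claw is a description. ENSGALG00000023129 held 190 and 112 TPM and ENSGALG00000009277 312 and 117 TPM in claw dermis at placode and morphogenesis, and ENSGALG00000006811 was listed at 0 and 0.187 TPM. The claw did not follow foot scale in every named gene. ENSGALG00000009415 stood at 52.5 and 29.9 TPM in claw dermis, against 0.642 to 4.90 TPM in claw epidermis. Its claw contrast of 3.905 differed from that of foot scale (adjusted p = 6.34e-05) and was not called different from that of feather (adjusted p = 0.691). The claw contrast of ENSGALG00000018783 was -2.30, with the higher level in epidermis, and differed from both feather (adjusted p = 2.38e-06) and foot scale (adjusted p = 0.00319). ENSGALG00000022815, ENSGALG00000007257 and ENSGALG00000010923 also differed from both, with claw contrasts of 2.28, -4.42 and -4.57.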

How the data were processed

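RNA was measured in skin layers that, per the labels' protocols, had been parted with dispase (10 mg/mL, 4 °C, 13 h). Libraries kept the strand and were enriched for polyA RNA. HTSeq 0.5.3p9, TopHat2 2.0.6 and CASAVA are listed in the submitters' processing notes, which give no roles. The genome build was not given in the sources used here. Values were deposited by the authors as TPM in 1 table of 17889 genes. TPM shares 1 total among all genes and does not record depth, and counting intervals could not be had.

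Groups came from the labels. Genes at 1 TPM or more in at least 2 of the 24 libraries (13436) entered a linear model (limma 3.58.1, R 4.3.3) of log2(TPM + 1), a scale that understates changes of low genes. The fit had a mean for each of 8 classes of tract and stage and a dermis term for each appendage (14 residual degrees of freedom, trend and robust shrinkage, Benjamini-Hochberg adjustment at 0.05). All 5 contrasts come from it. Claw (stage and layer terms) and emu (class means) were fitted apart. The fit was tested on simulated data with noise drawn separately for each library. Correlation between libraries that share a specimen number was left out of the simulation, so its effect on the calls was not tested there. P-values rest on a spread that pools both layers. It comes from the 2 epidermis libraries of each class and from how the layer difference varies among the 4 classes of an appendage. No spread between dermis libraries of the same class could be measured, and the fit assumes that dermis varies as much as epidermis. The labels do not say whether a specimen number is 1 embryo.

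The members, lists and tests were chosen with earlier results of these data known. The 26 gene lists could not be applied. Named genes are the 2 largest terms each way among genes called, at least 2-fold and with paired differences that do not overlap. A rule added after the values were seen names, in the same way, 2 genes each way where dermis or epidermis differs alone and its libraries do not overlap. Alternatives covered pseudocount, filter, scaling, covariates, tracts, stages and each library left out.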

Additional observations from a re-analysis of the deposited data

Results flagged for a closer look

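The layer contrast differed between feather and foot scale by the test of the difference itself in all 12 named genes, as the rule that named them requires. The terms (feather minus foot scale, log2) were 7.08 for ENSGALG00000009415, 5.8 for ENSGALG00000009302, -6.32 for ENSGALG00000023129, -6.13 for ENSGALG00000014634, 5.41 for ENSGALG00000006811, 4.68 for ENSGALG00000018783, -5.95 for ENSGALG00000009277, -5.11 for ENSGALG00000022815, -4.97 for ENSGALG00000007466, -5.19 for ENSGALG00000019756, 5.35 for ENSGALG00000007257 and 4.98 for ENSGALG00000010923. Scutate and reticulate scale differed in layer contrast by 5.41 in ENSGALG00000009302, 3.92 in ENSGALG00000018783, -1.41 in ENSGALG00000009277 and 2.17 in ENSGALG00000010923 (scutate minus reticulate). The term of ENSGALG00000007257 differed between morphogenesis and placode by -1.64.

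In 71 groups of libraries examined, 5 had a library far from the others, and chance alone gives about 1 in 20. ENSGALG00000009415 stood at 10.55 TPM in scutate placode dermis, the highest of foot scale dermis. ENSGALG00000007466 stood at 33.65 TPM in feather dorsal placode dermis, the highest of feather dermis. ENSGALG00000009277 stood at 0.1908 TPM in feather dorsal morphogenesis dermis and ENSGALG00000022815 at 1.267 TPM in feather femoral morphogenesis dermis and at 0.4191 TPM in reticulate morphogenesis epidermis replicate 2, all of them low levels.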

How the results depend on the processing

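The count of genes with a called term lay within 1.5 times 2747 under other pseudocounts, filters, scalings and variance models. It also did so with a plain stage term and with reticulate scale or morphogenesis alone. A like count need not mean the same genes. With reticulate scale alone 3058 genes were called, and 2165 of them were among the 2747. The pair nearest in age leaves 1 foot scale dermis library, so its counts are not given and its smaller terms cannot be read as an effect of age. The count of called terms was lower in 4 alternatives with fewer samples and in the fit with specimen number as a replicate block. Given as all, higher and lower, it was 1203, 511 and 692 with the block, and 1190, 450 and 740 with dorsal and femoral libraries averaged. It was 1226, 502 and 724 with scutate scale only, 1319, 398 and 921 with placode only, and 526, 185 and 341 with only the epidermis of specimens that also gave dermis. Deviations of a dermis library and the epidermis library of its number correlated at -0.195 to 0.388 across genes over 8 pairs, with only the scutate placode pair below 0. The fit of all 24 libraries does not pair the layers by number, while the replicate block does. These correlations do not settle which is right. Dorsal and femoral epidermis libraries of 1 number correlated at 0.464 and 0.476, and the fit of all 24 libraries counts them as separate, which the averaged fit does not. In dermis, feather and foot scale differed in 570 genes with tracts averaged, 668 with scutate scale only, 959 with placode only, 1125 in the pair nearest in age and 564 with matched epidermis. In epidermis the counts were 3472 with scutate scale only, 2716 in the pair nearest in age and 1512 with matched epidermis. The layers of foot scale differed in 5301 genes in the pair nearest in age.

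Leaving out 1 library at a time gave 1968 to 3841 genes for the term (823 to 1735 higher, 1128 to 2106 lower), 6436 to 7859 for the layers of feather, 7557 to 8408 for those of foot scale, 1175 to 2979 for the appendages in dermis and 5631 to 6448 in epidermis. The 1735 higher terms came without the scutate placode dermis library. The counts in dermis moved most without the feather dorsal placode (1175), reticulate placode (1214), scutate morphogenesis (1225) or scutate placode dermis library (2979, within 1.5 times). Leaving out both feather placode dermis libraries, an alternative chosen after seeing the data, gave 2731 genes, 1656 of them among the 2747. Over 492 recomputed terms of the 12 named genes, 0 reversed and 12 were no longer called, none of these under the replicate block. The rule named these genes for large, called terms in the same libraries, which largely fixes this outcome. Over all genes, 1156 of the 2747 calls were kept under the replicate block and 520 with matched epidermis only. Read depth is not recorded in TPM, so its limit on low genes is unknown. The cause of these shifts was not tested.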
